A study of Mus musculus with 8 samples.

Results

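Lysosomes are acidic organelles in which worn-out cell parts and engulfed material are taken apart by hydrolases, each of which cuts 1 kind of bond in a glycan, protein, lipid or nucleic acid. Most of these enzymes are soluble glycoproteins that receive a mannose phosphate tag in the Golgi apparatus and are carried by receptors to the lysosome. Inherited loss of single enzymes leads to storage diseases, many of which affect the brain, and phagocytes that clear myelin and dead cells depend on the same enzymes. The genes described here are 30 genes for lysosomal glycan, protein, lipid and nucleic acid hydrolases and their helpers, listed by name and role, with earlier results of these data known. They comprise 6 genes of glycoprotein and glycogen degradation (glycosidases and Aga), 9 genes of glycosaminoglycan degradation and 5 genes for proteases, a thiol reductase and progranulin. The others are 8 genes for lipases, phosphatases and nucleases, and 2 genes for helpers of enzyme maturation. All 30 were found among the 46078 gene identifiers counted in every library, and all 30 passed the filter on low counts, which kept 14736 genes.

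The messenger RNA came from chronic infarcts of 8 wild type C57BL/6J mice, all male and 18 months of age, that had undergone DH stroke, a closure of the distal middle cerebral artery followed by a period of low oxygen. Beginning 1 week after the stroke, the animals were injected under the skin 3 times weekly over 6 weeks, and infarcts were collected 7 weeks after the stroke. One group received sterile PBS (vehicle, n = 4) and the other 4 g/kg HPβCD (2-hydroxypropyl-β-cyclodextrin, n = 4), a ring of sugars that binds cholesterol and other lipids in its cavity. Each library came from 1 animal. The tissue was located by sight and excised manually, and the share of surrounding tissue in a piece is not stated. No unstroked tissue or untreated stroke animal was analysed here, so both groups carry the injury and the injections.

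Total gene counts lay between 16.6 M and 32.9 M per library. In CPM (counts scaled to a common library total), 8 neuronal marker genes summed to 952 and 6009 in vehicle animals 1 and 3, but to between 7.78 and 81.7 in the other 6 libraries. Macrophage markers were present in every library. The vehicle group therefore held 2 libraries with neuronal transcripts. The median, the calls and some single genes are given below also with vehicle animals 2 and 4 as the only controls. Glial markers remained high in those animals. There, 6 oligodendrocyte markers summed to 2254 and 3031 CPM, against 158, 164, 1930 and 926 CPM in HPβCD animals 1 to 4. For 6 astrocyte markers the sums were 1528 and 2548 CPM, against 544, 648, 1759 and 1039 CPM. That choice of controls thus leaves a difference in glial markers between the groups. Because whole tissue was sequenced, fewer cells of a type and less RNA per cell cannot be told apart.

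Transcription factors of the MiT/TFE family, among them TFEB, bind a sequence known as the CLEAR element, whose core is TCACGTG, in the promoters of many lysosomal genes. RefSeq promoter windows on GRCm38.p6, from 250 bases before to 50 bases after a start site, were found for 26 of the 30 genes, and Aga, Galns, Hgsnat and Plbd2 had no entry. Some genes had several start sites, so the 26 genes had 29 windows, and a gene counted if any of its windows held the motif. TCACGTG on either strand stood in a window of 7 of the 26 genes (26.9%), compared with 4.29% of 27025 genes with a window and 6.64% of 11075 tested genes with a window. Every one of the 7 genes with the shorter E-box CACGTG, which TCACGTG contains, also held the longer core. The stretches around the motif are shown because they are the sequence that these genes share beyond their role, with the motif and, where present, its palindromic flank in capitals, 5′ to 3′ on the strand of the gene.

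Gaa, chr11:119267796-119267855, plus strand: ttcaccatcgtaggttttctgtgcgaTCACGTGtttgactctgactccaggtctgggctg
Naglu, chr11:101070009-101070038, plus strand: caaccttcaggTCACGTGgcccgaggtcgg
Sgsh, chr11:119355507-119355566, minus strand: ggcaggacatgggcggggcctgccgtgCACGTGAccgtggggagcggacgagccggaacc
Lgmn, chr12:102439109-102439168, minus strand: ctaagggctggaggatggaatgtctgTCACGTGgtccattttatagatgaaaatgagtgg
Ifi30, chr8:70766827-70766886, minus strand: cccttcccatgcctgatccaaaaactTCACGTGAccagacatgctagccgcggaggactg
Sumf1, chr6:108185562-108185621, minus strand: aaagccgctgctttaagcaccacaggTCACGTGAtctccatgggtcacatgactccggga
Plbd1, chr6:136661844-136661862, minus strand: ggttcccaaggcCACGTGA

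In Ifi30 and Sumf1 the core was the full palindrome TCACGTGA, which 1.12% of all genes with a window held. The motif began 196 bases before the RefSeq start in Ifi30, 140 before it in Gaa, 73 before it in Naglu, 29 before it in Sgsh and 11 before it in Sumf1, whereas in Plbd1 it began 43 bases after the start. In Lgmn it began 49 bases before a start that lies within the annotated gene. The other window of Lgmn, nearer the annotated beginning of the gene, held no such motif. A related motif, the M-box TCATGTG, stood in the windows of 5 genes (Acp5, Grn, Ppt1, Sumf1 and Tpp1; 19.2%), compared with 4.31% of all genes with a window. A match describes these letters in this window and is no measure of binding.

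To describe these enzymes in treated and control infarcts, the 30 genes were compared between 4 HPβCD-treated and 4 vehicle-treated animals by the quasi-likelihood test of edgeR across all 14736 genes. Below, a level is given as mean ± SD (n = 4 per group) and a log2 fold change ± its standard error. Mean expression was higher after HPβCD for 28 of the 30 genes, and 5 of them rose past an adjusted p of 0.05: Scpep1, Naglu, Galns, Gaa and Arsb. Over all tested genes, 1.17% were called higher by the same rule, and the 5 calls have edgeR adjusted p values between 0.0427 and 0.0483. None of the 30 was called lower, compared with 0.774% of all genes; 1, Ids, had an unadjusted p under 0.05 in that direction, and DESeq2 also called 0 lower. At an unadjusted p under 0.05, 23 of the 30 genes were higher, against 11.8% of all genes.

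The groups did not overlap for 20 of the 30 genes, each of them higher in all HPβCD animals than in any vehicle animal, compared with 8.77% of all tested genes. The median log2 fold change of the 30 was 0.70, and that of all tested genes was -0.05. Changes were of moderate size: 19 of the genes differed by at least 1.5-fold upward, 3 by more than 2-fold, and the highest fold was 2.29. A further 14 genes had an edgeR adjusted p between 0.0501 (Plbd2) and 0.1, so the count of calls depends on where the threshold falls. With DESeq2, the test used in the study, 19 of the 30 were called higher, against 6.97% of the genes that DESeq2 tested. The edgeR calls were sensitive to the settings. With library totals in place of TMM scaling factors, which moved the median of all genes to -0.13, 0 of the 30 were called, with adjusted p values of 0.0539 to 0.0549 for the 5 genes, while 27 had higher means and their median log2 fold change was 0.62. None was called with the neuronal score as a covariate, where 28 had a fitted log2 fold change above 0. Of these, 18 had an unadjusted p under 0.05. In that fit 2671 of the 14736 genes had such a p, in either direction. The same 5 genes passed again when HPβCD animal 4 or either of vehicle animals 2 and 3 was left out, and 0 of the 30 passed when vehicle animal 1 or 4 or HPβCD animal 1, 2 or 3 was.

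**Figure D1:**
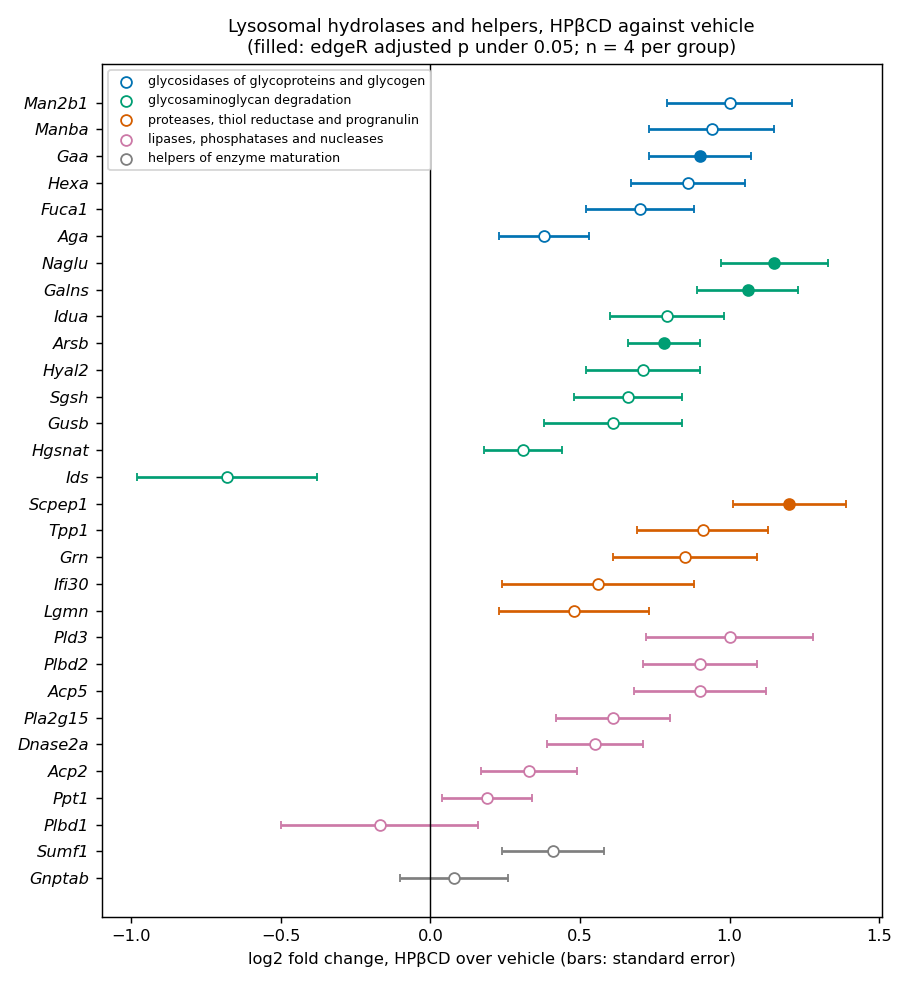
The log2 fold change of each of the 30 genes (horizontal axis, HPβCD over vehicle, with standard errors) is plotted by role, with filled points for an edgeR adjusted p under 0.05 (n = 4 per group). Points for 28 genes lie to the right of 0, 5 of them filled, and Ids lies farthest to the left at -0.68.

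All 6 genes of glycoprotein and glycogen degradation had higher means after HPβCD. Of these, 5 did not overlap between the groups, 1 was called, and their median log2 fold change was 0.88. Gaa (chr11:119267887-119285454, plus strand), the acid α-glucosidase that breaks down glycogen, measured 155, 166, 195 and 164 CPM in vehicle animals 1 to 4, and 342, 381, 307 and 244 CPM in HPβCD animals 1 to 4. The lowest HPβCD animal lay above the highest vehicle animal. Gaa rose by a log2 fold change of 0.90 (± 0.17, adjusted p = 0.0483 by edgeR).

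Hexa (chr9:59539540-59565109, plus strand) encodes the α subunit of β-hexosaminidase, which removes terminal hexosamines from glycoproteins and GM2 ganglioside. Its level was 309, 435, 320 and 411 CPM in vehicle animals and 668, 658, 809 and 538 CPM in HPβCD animals. Per length of exon it was among the 3 genes with the highest levels, with 185 ± 31.8 RPKM in vehicle and 335 ± 55.7 RPKM in HPβCD infarcts (SD, n = 4 each; RPKM, CPM per kilobase of exon). The groups were separate, and the log2 fold change of 0.86 ± 0.19 had an edgeR adjusted p of 0.0545, just above the threshold.

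The remaining glycosidases trim the sugar chains of glycoproteins one residue at a time. Man2b1, lysosomal α-mannosidase, averaged 338 ± 41.9 CPM in vehicle infarcts and 676 ± 186 CPM after HPβCD, a log2 fold change of 1.00 ± 0.21. Manba, β-mannosidase, averaged 130 ± 37.3 and 248 ± 21 CPM in the same order, and Fuca1, α-fucosidase, 57.7 ± 7.55 and 93.5 ± 19.6 CPM. These 3 genes did not overlap between groups, with edgeR adjusted p values of 0.0522, 0.0593 and 0.0675. Aga, which cleaves the bond between glycan and asparagine, had the lowest log2 fold change of the 6, 0.38 ± 0.15, and its groups overlapped.

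**Figure D2:**
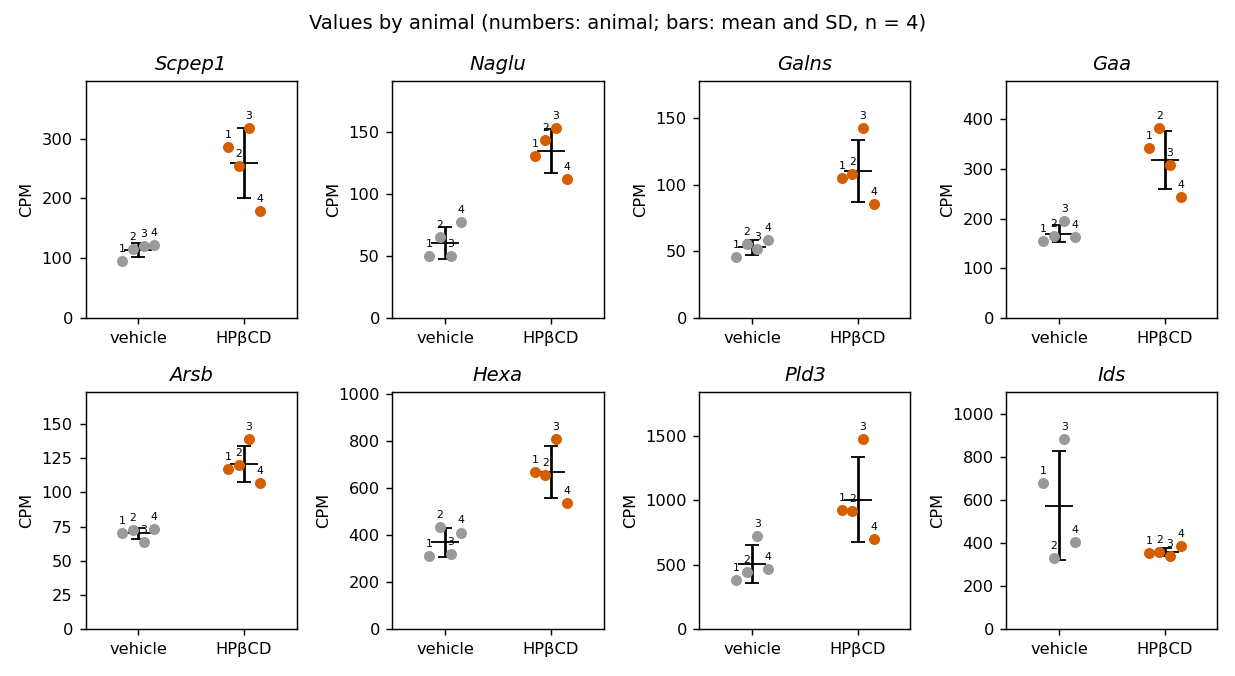
CPM of 8 genes by animal, with the mean and SD of each group (n = 4; numbers give the animal). In Scpep1, Naglu, Galns, Gaa, Arsb and Hexa every HPβCD animal lies above every vehicle animal, in Pld3 vehicle animal 3 reaches into the HPβCD group, and in Ids vehicle animals 1 and 3 lie above all others.

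Glycosaminoglycans such as heparan, dermatan, keratan and chondroitin sulfate are taken apart by a fixed sequence of sulfatases and glycosidases. Of the 9 genes of this group 8 had higher means after HPβCD, 7 did not overlap, and 3 were called, all higher, with a median log2 fold change of 0.71 for the 9. Naglu (chr11:101070012-101077672, plus strand), which removes N-acetylglucosamine from heparan sulfate, measured 50.5, 65.1, 49.9 and 77.5 CPM in vehicle and 131, 144, 153 and 112 CPM in HPβCD animals. The groups were clearly apart, and Naglu rose by 1.15 on the log2 scale (± 0.18, adjusted p = 0.0427 by edgeR), the second highest fold change of the 30.

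Galns (chr8:122578242-122611463, minus strand), a sulfatase of keratan and chondroitin sulfate, measured 45.9, 55.6, 51.6 and 58.7 CPM in vehicle animals and 105, 108, 142 and 85.8 CPM in HPβCD animals. It rose by 1.06 on the log2 scale (± 0.17, adjusted p = 0.0432 by edgeR), with no overlap. Arsb (chr13:93771630-93943016, plus strand), a sulfatase of dermatan and chondroitin sulfate, varied little within groups, at 70.6, 72.4, 64 and 73 CPM in vehicle and 117, 120, 139 and 107 CPM in HPβCD animals. Arsb had the smallest p of the 30 (0.000139), a log2 fold change of 0.78 ± 0.12 and an edgeR adjusted p of 0.0427. Antisense or overlapping genes cover 39.9% of the exon bases of Arsb on the opposite strand, and the strand setting of the counting was not stated, so its counts may include reads of those genes.

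Other enzymes of heparan sulfate breakdown did not pass the threshold. Sgsh, N-sulfoglucosamine sulfohydrolase, measured 16.1, 26.1, 20.3 and 21.8 CPM in vehicle and 30.9, 34.1, 40 and 28.1 CPM in HPβCD animals, which do not overlap (log2 fold change 0.66 ± 0.18, adjusted p = 0.0794 by edgeR). Idua, α-iduronidase, averaged 22.4 ± 3.38 and 38.8 ± 7.63 CPM without overlap. Hgsnat, the membrane enzyme that acetylates heparan sulfate in the lysosome, differed least, with a log2 fold change of 0.31 ± 0.13 and overlapping groups. Gusb, β-glucuronidase, had a log2 fold change of 0.61 ± 0.23, with HPβCD animal 3 at 353 CPM and the other 3 HPβCD animals between 206 and 228 CPM, above the highest vehicle animal at 198 CPM.

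Hyal2, a membrane-anchored hyaluronidase, had the lowest level per length of the 30 genes, 3.84 ± 0.263 RPKM in vehicle and 6.27 ± 1.44 RPKM in HPβCD infarcts. In CPM it measured 11.4, 13, 13 and 13.3 in vehicle and 24.1, 18.7, 24.9 and 14.9 in HPβCD animals. The groups were separate, although HPβCD animal 4 lay close to the vehicle animals (log2 fold change 0.71 ± 0.19, adjusted p = 0.072 by edgeR).

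Ids stood apart from the rest of its group. This gene (chrX:70343069-70365084, minus strand) encodes iduronate sulfatase, which acts on heparan and dermatan sulfate, and it measured 679, 331, 882 and 402 CPM in vehicle animals against 355, 357, 339 and 384 CPM in HPβCD animals. Vehicle animals 1 and 3 were high, and the other 6 animals lay together between 331 and 402 CPM. The log2 fold change was -0.68 (± 0.30, adjusted p = 0.177 by edgeR). Those 2 animals are the ones with neuronal markers, and with vehicle animals 2 and 4 as the only controls the log2 fold change of Ids was -0.02 (adjusted p = 0.956 by edgeR). With a neuronal score as a covariate it was -0.04 (adjusted p = 0.932 by edgeR).

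Among the proteases, Scpep1 showed the largest fold change of all 30 genes. Scpep1 (chr11:88924020-88955465, minus strand), a serine carboxypeptidase, measured 96.1, 115, 120 and 122 CPM in vehicle and 286, 255, 317 and 179 CPM in HPβCD animals. It rose by 1.20 on the log2 scale (± 0.19, adjusted p = 0.0427 by edgeR), a fold of 2.29, with no overlap. The 5 genes of this group all had higher means after HPβCD, 3 did not overlap, and their median log2 fold change was 0.85.

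Lgmn (chr12:102394084-102439813, minus strand), legumain, an endopeptidase that cuts after asparagine and matures cathepsins, had the highest level of the 30 genes per length, 505 ± 146 RPKM in vehicle and 705 ± 161 RPKM in HPβCD infarcts. In CPM it measured 886, 1552, 890 and 1366 in vehicle and 1369, 1508, 2191 and 1482 in HPβCD animals. Vehicle animal 2 lay above 3 of the 4 HPβCD animals, and the log2 fold change of 0.48 ± 0.25 did not pass (adjusted p = 0.255 by edgeR). Lgmn alone made up 19.9% of the summed CPM of the 30 genes.

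Ifi30, a thiol reductase that opens disulfide bonds of antigens, was high in 1 animal. It measured 27.1, 30, 27.1 and 29.2 CPM in vehicle and 32.6, 32.2, 76.5 and 26.1 CPM in HPβCD animals, with HPβCD animal 3 far above and HPβCD animal 4 below every vehicle animal (log2 fold change 0.56 ± 0.32, adjusted p = 0.287 by edgeR). Tpp1, a tripeptidyl peptidase, averaged 310 ± 82.3 and 582 ± 90.7 CPM, and Grn, the precursor of the granulins, 299 ± 49.9 and 541 ± 171 CPM. Neither overlapped between the groups, with edgeR adjusted p values of 0.0641 and 0.0791.

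No lipase, phosphatase or nuclease was called by edgeR, although 7 of the 8 had higher means after HPβCD, 5 of the 8 had an unadjusted p under 0.05, DESeq2 called 5 and 4 did not overlap between the groups. Pld3 (chr7:27532000-27553218, minus strand), an endolysosomal exonuclease of single-stranded nucleic acids, measured 384, 444, 722 and 468 CPM in vehicle and 928, 915, 1477 and 703 CPM in HPβCD animals. Vehicle animal 3, one of the animals with neuronal markers, lay above HPβCD animal 4, and the log2 fold change was 1.00 (± 0.28, adjusted p = 0.0801 by edgeR). With vehicle animals 2 and 4 only it was 1.16.

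Plbd1 and Plbd2 encode phospholipase B-like proteins and differed in pattern. Plbd1 measured 74.8, 91.3, 30.1 and 64.2 CPM in vehicle and 54.6, 47.9, 81.4 and 47.9 CPM in HPβCD animals, overlapping throughout (log2 fold change -0.17 ± 0.33, adjusted p = 0.779 by edgeR), and its mean was not lower when vehicle animal 2 was left out (log2 fold change 0.04). Plbd2 averaged 77.1 ± 11.7 and 144 ± 31.6 CPM, did not overlap, and missed the threshold narrowly (log2 fold change 0.90 ± 0.19, adjusted p = 0.0501 by edgeR). The difference between the 2 genes was not tested.

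Pla2g15, the lysosomal phospholipase A2, averaged 149 ± 30.8 CPM in vehicle infarcts and 228 ± 34.7 CPM after HPβCD. Acp5, tartrate-resistant acid phosphatase, averaged 74.9 ± 11.5 and 140 ± 38.4 CPM, with HPβCD animals 1 and 3 at 176 and 170 CPM and HPβCD animals 2 and 4 at 106 and 107 CPM. Dnase2a, the acid DNase, averaged 33 ± 4.12 and 48.4 ± 8.21 CPM. These 3 genes did not overlap between the groups, whereas Acp2, lysosomal acid phosphatase (log2 fold change 0.33 ± 0.16), and Ppt1, palmitoyl-protein thioesterase (log2 fold change 0.19 ± 0.15), did.

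The 2 helpers differed little. Sumf1, which makes the formylglycine that sulfatases such as Galns, Arsb, Sgsh and Ids need for activity, measured 74.7, 93.1, 58.3 and 95 CPM in vehicle and 96.5, 101, 109 and 119 CPM in HPβCD animals. The lowest HPβCD animal stood just above the highest vehicle animal (log2 fold change 0.41 ± 0.17, adjusted p = 0.171 by edgeR). Gnptab, a subunit of the enzyme that starts the mannose phosphate tag, averaged 84.3 ± 14.3 and 89.1 ± 17.4 CPM (log2 fold change 0.08 ± 0.18), and its direction turned under other settings.

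**Figure D3:**
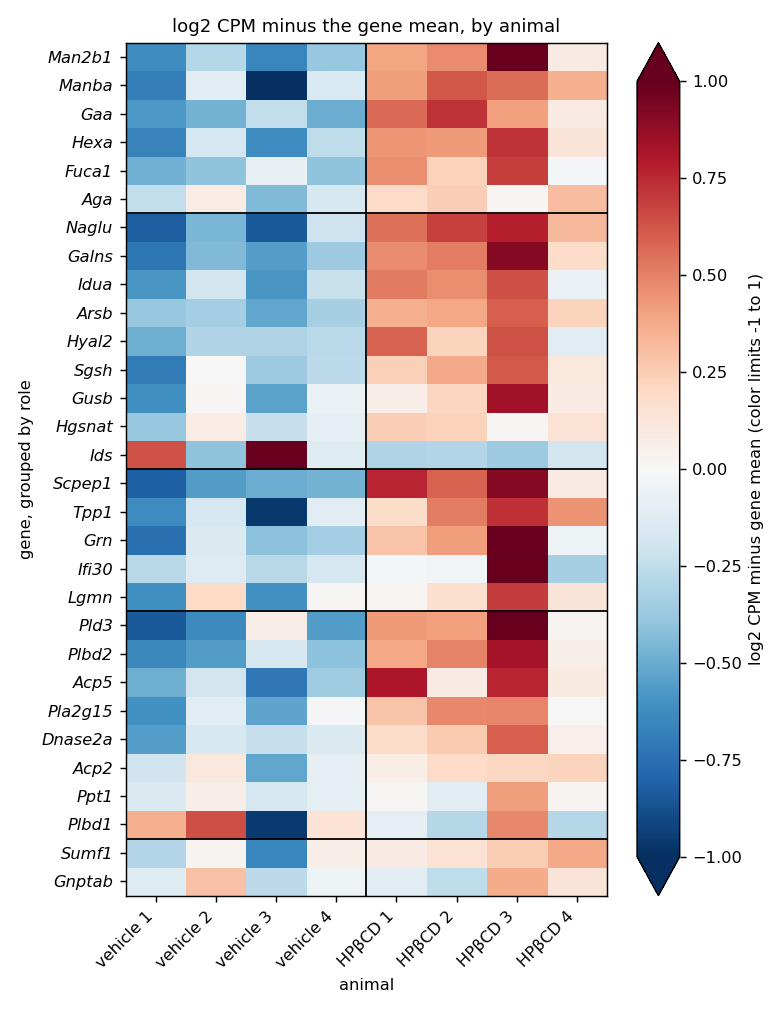
Each cell gives the log2 CPM of a gene (rows, grouped by role) in 1 animal (columns) minus the mean of that gene over the 8 animals, with colors limited to -1 and 1. Red prevails in the 4 HPβCD columns and most of all in HPβCD animal 3, which holds the highest value of 21 genes, and the row of Ids is red only in vehicle animals 1 and 3.

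Levels of the 30 genes spanned a wide range, with mean RPKM from 5.06 to 605, a ratio of 120, and a median of 36.3. Within groups, 28 of the 30 genes had their highest value in an HPβCD animal, 21 of them in HPβCD animal 3, and 29 had their lowest value in a vehicle animal, 16 in vehicle animal 1 and 12 in vehicle animal 3. The median SD of log2 CPM was 0.23 in vehicle and 0.28 in HPβCD animals. Without HPβCD animal 3, the median log2 fold change of the 30 genes was 0.59. In that fit 22 genes were higher without overlap, compared with 11% of all genes, a share that was 8.77% with all animals. Without HPβCD animal 4, the lowest HPβCD animal in summed level, the median was 0.83. With vehicle animals 2 and 4 as the only controls it was 0.64, 3 genes were called by edgeR (Naglu, Arsb and Scpep1), and 21 genes did not overlap, compared with 17.7% of all genes in that fit. Most single genes had a lower log2 fold change there than in the main fit. Log2 fold changes fell to 0.18 for Lgmn, 0.19 for Sumf1, 0.17 for Acp2, 0.38 for Gusb, 0.64 for Manba and 0.64 for Tpp1. Among the genes called in the main fit, they fell to 0.93 for Naglu, 0.96 for Galns, 0.74 for Arsb and 1.15 for Scpep1. Only those of Fuca1 (0.78), Gaa (0.96), Plbd2 (0.97), Pld3 (1.16) and Ids (-0.02) were above the main fit.

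Summed over the 30 genes, the level was 4841, 6098, 5384 and 5828 CPM in vehicle animals 1 to 4 and 7945, 8307, 10822 and 7200 CPM in HPβCD animals 1 to 4. All 4 HPβCD animals lay above the vehicle animals, and the means were 5538 ± 550 and 8568 ± 1571 CPM (SD, n = 4 each), a fold of 1.55. As a share of all gene counts before scaling, the genes took 0.569% ± 0.0701 in vehicle and 0.831% ± 0.141 in HPβCD infarcts.

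The summed level of markers of foamy macrophages, the lipid-laden phagocytes of chronic infarcts, was also higher after HPβCD. Over 12 genes it ranged from 9082 to 16030 CPM in vehicle and from 19820 to 33822 CPM in HPβCD animals. Of the 12, 11 had higher means, 1, Gpnmb, was called by edgeR, and 7 by DESeq2. Gpnmb alone averaged 4154 and 10803 CPM, of mean sums of 12774 and 25741 CPM. Log2 fold changes were small for Spp1 (0.09), Msr1 (0.08) and Lpl (-0.21). By staining, the paper reported less lipid droplet accumulation in infarcts of aged mice after HPβCD, which these RNA levels do not measure. The 8 pan-macrophage markers ranged from 1597 to 2537 CPM in vehicle and from 2332 to 4271 CPM in HPβCD animals, with 6 higher and none called by edgeR (2 at an unadjusted p under 0.05, 2 by DESeq2). HPβCD animal 3 had the highest sum in both lists, as it had for the 30 genes. Relative to the mean of the pan-macrophage markers in each animal, 24 of the 30 genes were still higher after HPβCD with a median log2 difference of 0.31, and relative to the foamy macrophage markers 14 were higher, with a median of -0.10. Naglu and Scpep1 had the largest upward differences by both references, 0.80 each relative to pan-macrophage markers, and 0.39 and 0.40 relative to foamy macrophage markers. Ids had the largest downward ones, -0.93 and -1.34. The foamy macrophage list was chosen after seeing the data, and marker RNA per cell may itself change with treatment. These ratios therefore cannot tell the number of cells from the level per cell.

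Other cell type markers moved as well. The 6 fibroblast markers summed to between 2348 and 6025 CPM in vehicle and between 8657 and 9270 CPM in HPβCD animals, with 2 called higher. Among the 7 microglia markers 5 had lower means after HPβCD, with a median log2 fold change of -0.88. The 6 osteoclast markers, of which 3 were tested, summed to 27 to 94.8 CPM in vehicle and 36.5 to 118 CPM in HPβCD animals. Mmp9 and Itgb3 made up most of each sum, and Calcr, Oscar, Dcstamp and Ocstamp did not exceed 1.49 CPM in any library. B lymphocyte and plasma cell markers had median log2 fold changes of -1.89 and -1.63, and those of astrocytes and oligodendrocytes -1.57 and -1.90. No list had a gene at 0 in every library. Cell composition entered only through the ratios to macrophage markers, the fit with the neuronal score as a covariate and the fit with vehicle animals 2 and 4 only. Its part in the differences of the 30 genes was not tested.

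**Figure D4:**
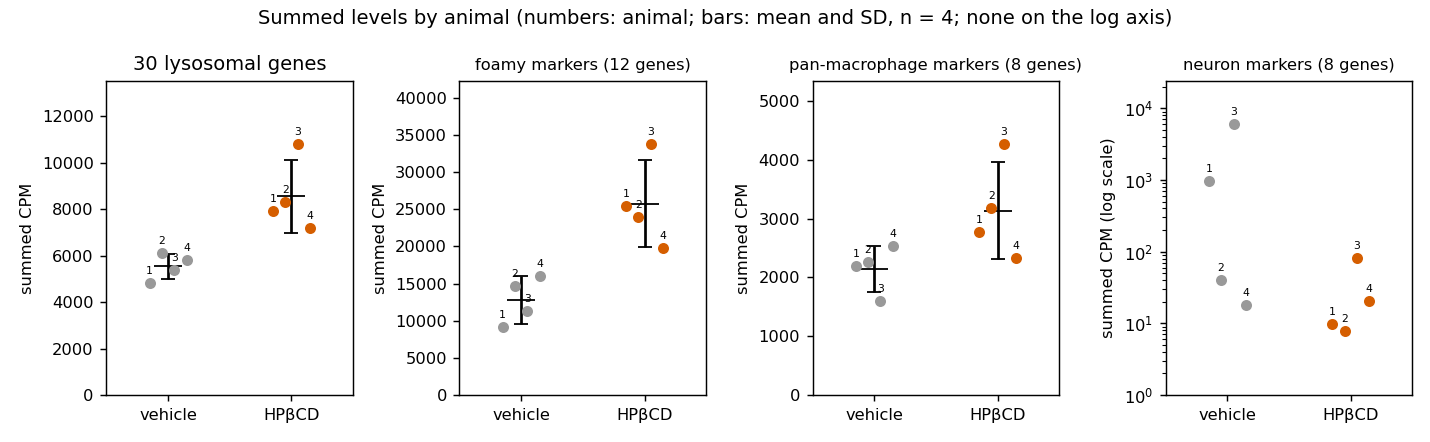
Summed CPM by animal for the 30 lysosomal genes, foamy macrophage markers, pan-macrophage markers and neuron markers (numbers give the animal; bars are the mean and SD, n = 4, and the neuron axis is on a log scale without bars). The first and second panels separate the groups with HPβCD animal 3 on top, the pan-macrophage panel overlaps, and neuron markers reach 952 and 6009 CPM in vehicle animals 1 and 3 alone.

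Genes that act beside the 30 were described from lists of the same pathway. Among 23 other soluble lysosomal enzymes, 21 had higher means, 12 did not overlap, and 5 were called higher, with a median log2 fold change of 0.59. Among those called were Creg1, a secreted lysosomal glycoprotein, at 400 ± 75.9 CPM in vehicle infarcts and 972 ± 116 CPM after HPβCD (log2 fold change 1.28, adjusted p = 0.0389 by edgeR), Dpp7, Hpse and Man2b2. Lipa, the acid lipase of cholesterol esters, averaged 720 ± 215 and 1360 ± 58.3 CPM without overlap. Its adjusted p was 0.0643 by edgeR and 0.00262 by DESeq2. The paper, which used DESeq2, lists Lipa among genes raised by HPβCD in infarcts.

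Of 10 genes for sorting and maturation, 8 had higher means, 4 did not overlap and 1 was called. That gene was Igf2r, the large mannose phosphate receptor, at 150 ± 29.7 CPM in vehicle infarcts and 296 ± 42 CPM after HPβCD (log2 fold change 0.98 ± 0.18, adjusted p = 0.0483 by edgeR). M6pr, the small mannose phosphate receptor, had a log2 fold change of 0.18 ± 0.24, Scarb2, the carrier of glucocerebrosidase, 0.36 ± 0.16, and Sort1, sortilin, -0.41 ± 0.26, none of which passed.

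The other lysosomal lists had lower medians than the 30 genes but, in 3 of them, larger folds in summed CPM, which weights the most abundant genes: 2.37 for sphingolipid degradation, 1.79 for cathepsins and 1.77 for the other soluble enzymes, against 1.55 for the 30. Differences between lists were not tested. The 12 cathepsins had a median log2 fold change of 0.53 with 0 called by edgeR, 6 at an unadjusted p under 0.05 and 6 called by DESeq2. The 11 genes of sphingolipid degradation had a median of 0.47 with 2 called higher, Psap and Arsa, and the 20 genes of the lysosomal membrane and proton pump 0.43 with 1 called higher, Tcirg1. The 4 MiT/TFE factors had log2 fold changes from 0.22 (Mitf) to 0.57 (Tfec), with none called by edgeR or DESeq2 and 2 at an unadjusted p under 0.05. Tfeb averaged 14.0 ± 2.16 CPM in vehicle infarcts and 17.4 ± 1.92 CPM after HPβCD.

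Fold changes were set beside the promoter motifs shown above. The 7 genes with TCACGTG in a window had a median log2 fold change of 0.56, from -0.17 in Plbd1 to 1.15 in Naglu, and 4 did not overlap. The 19 genes with a window and no TCACGTG had a median of 0.78, from -0.68 in Ids to 1.20 in Scpep1, and 14 did not overlap. Each of these 2 sets held 2 of the called genes. The 5 genes with the M-box had a median of 0.85, with 0 called by edgeR.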

How the data were processed

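The 30 genes and the other lists were chosen with earlier results of these data known. Per the labels, the authors sequenced strand-specific libraries of polyadenylated RNA, and their processing notes name bcl2fastq 2.19, Trimmomatic 0.32, STAR 2.5.2b, HTSeq, DESeq2 and the build GRCm38. The authors deposited unnormalized read counts for each gene in 1 table per animal. The strand option, annotation release and HTSeq version were not given in the sources used here. Reads assigned to no gene (26.6% to 36.6% per library) were left out of totals and tests. Counting does not assign reads that align to several places.

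Groups and animal numbers came from the titles of the samples. Counts were tested with edgeR 4.0.16 in R 4.3.3 (robust quasi-likelihood F test, TMM scaling, filterByExpr), without covariates and over all 14736 genes kept, and p-values were adjusted over all of them by the Benjamini-Hochberg method, with a threshold of 0.05. The standard error of a log2 fold change was its size divided by the square root of F. CPM used the TMM-scaled totals, log2 CPM a prior count of 2, and RPKM the exon union of GENCODE M21 on GRCm38, which also supplied coordinates. DESeq2 1.42.0 and limma 3.58.1 (voom with sample quality weights) were alternatives, together with other scalings, filters, a replicate block, a neuronal covariate, thinned counts and leaving out animals. The procedure was tested on simulated data. The labels give no batch.

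Libraries held between 16.6 M and 32.9 M gene counts, and the chi-square over its degrees of freedom was at least 18.2 for every pair of them, so none repeated another. All 8 were counted as separate animals from the sample titles and the design, which this check cannot establish. P-values weigh the difference between the groups against the spread between animals within them.

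Full values are given for called genes, the 3 largest and 2 smallest fold changes, the 3 smallest p-values, the 3 highest and 2 lowest levels per length, and genes with a sequence shown. Values of some single genes of the other lists are not reported here. Exons of 5 genes (Hexa, Sgsh, Arsb, Acp2 and Dnase2a) overlap genes on the opposite strand over more than 10% of their length, and none overlaps a gene on its own strand.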

Additional observations from a re-analysis of the deposited data

Results flagged for a closer look

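Of 62 sets of 4 animals examined, Hyal2 in the vehicle group was the only one with an animal far from the others, against 3.1 expected by chance. The log2 CPM of Hyal2 was 3.52 in vehicle animal 1 and between 3.71 and 3.74 in the other 3 vehicle animals, a gap that is wide only next to the narrow spread of those 3. All 4 vehicle values remained below those of the HPβCD animals.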

How the results depend on the processing

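Counts of calls varied widely between settings. Across all genes, 287 were called in the main analysis, against 2619 with DESeq2, 3253 with limma-voom and sample quality weights, 98 without robust estimation, 11 with library totals in place of TMM factors, 9 with the replicate block and 2 with the neuronal score as covariate. Of the 30 genes, 5 were called higher, against 19 with DESeq2, 19 with limma-voom and those weights, 0 with library totals, 0 with the replicate block, 0 with the neuronal covariate and 3 with vehicle animals 2 and 4 only. The cause of these shifts was not tested. Leaving out 1 animal at a time gave between 0 and 629 calls over all genes and between 0 and 10 among the 30, with a median log2 fold change of 0.59 to 0.83 and 20 to 25 genes without overlap. Without vehicle animal 2 these were 24 higher genes and Ids, whose 3 remaining vehicle values all lay above the HPβCD animals. Over all genes, 9.34% to 14.3% were higher without overlap when 1 animal was left out.

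Directions turned for Gnptab and Plbd1. The log2 fold change of Gnptab (0.08) was -0.09 with limma-voom, -0.01 with library totals and -0.06 with vehicle animals 2 and 4 only, and lay between -0.04 (without HPβCD animal 3) and 0.21 when animals were left out. That of Plbd1 (-0.17) lay between -0.40 and 0.04. The median of the 30 was 0.31 relative to pan-macrophage markers and -0.10 relative to foamy macrophage markers, the latter chosen after seeing the data. Among the values of single genes under other settings, 480 kept their direction and side of the threshold, 43 no longer passed, 42 newly passed and 5 turned.

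The labels do not say whether animals with the same number shared anything else. Correlations of their deviations were -0.26, 0.24, 0.33 and 0.10, and 2 of 4 vehicle animals correlated best with their own number. These few values cannot decide the question, and the numbers were treated as names. With 4 animals per group, the lowest adjusted p over all genes was 0.0222, and those of the 5 called genes lay between 0.0427 and 0.0483.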
